A study of Homo sapiens with 18 samples.

Results

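The cholesterol and fatty acid synthesis genes are 31 genes chosen by symbol: 18 enzymes of the mevalonate and sterol pathway, 6 genes that control or carry sterols or depend on SREBP, and 7 enzymes of fatty acid synthesis and desaturation. The symbols were matched to a table of 16472 genes from RNA sequencing of NIKS, an established human keratinocyte line that is immortalized. A row was matched for 30 of the 31, and no row matched ACACA, which was not analysed here. All 30 were among the 13280 genes that reached 1 RPKM (reads per kilobase of gene length, relative to all reads of the library) in at least 3 libraries and were tested.

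Cells make cholesterol from acetyl-CoA through mevalonate, squalene and lanosterol, and they make fatty acids from the same precursor through citrate cleavage and fatty acid synthase. Transcription of both routes is driven by the sterol regulatory element binding proteins (SREBPs), which are encoded by SREBF1 and SREBF2. SCAP escorts SREBPs out of the endoplasmic reticulum when sterols are low, and INSIG1 holds them there when sterols are plentiful. In epidermis, keratinocytes use both routes to build the lipids of the skin barrier, and in several cell types type I interferon is known to alter sterol synthesis.

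Cells were SP100 WT or knockout (KO) NIKS, left untreated (0 h) or kept for 12 or 48 h in human interferon alpha 2a, a type I interferon, at 25 ng/mL, with 3 biological replicates in each of the 6 groups. SP100 encodes a nuclear body protein that is itself induced by interferon. All groups were grown on lethally irradiated J2/3T3 mouse fibroblasts in serum with hydrocortisone, cholera toxin, epidermal growth factor and insulin. The column names give 1 line per genotype, Vec2 for WT and KO5 for KO, so genotype and other differences between the lines cannot be told apart. No untreated library at 12 or 48 h was analysed here, so the effects of interferon and of longer culture cannot be told apart. Nothing in the labels says how the biological replicates were kept separate, and p-values measure the spread between these libraries.

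As a check of the labels, KO cells held SP100 mRNA at 50.5% of the WT level untreated, 55.9% at 12 h and 46.9% at 48 h. Replicates had a correlation of 0.9853 to 0.9894 across genes within a group, and relative depth, recovered from low values, ranged from 0.848 to 1.236. The number of reads per library is unknown, so no counting interval was computed. All 12 keratinocyte markers on the list used were measured, with untreated WT cells at 7849 RPKM of KRT5 on average. Of 12 fibroblast markers, 4 had a row, and VIM made up nearly all of their sum.

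Promoter sequences of 6 members are shown for the genes on which the results turn, picked after their values were seen. MSMO1, INSIG1 and SCD fell at 12 h of interferon, rose from 12 to 48 h, and were higher in untreated KO. HMGCS1 had the largest difference between untreated genotypes among the 30, and FADS1 was lower in KO at each time. SREBF2 is the only member whose window held the exact sterol regulatory element searched. The sequences are the 250 bases before the annotated start in RefSeq on GRCh38.p14, read 5′ to 3′ on the gene's strand, from a table that held a window for 27 of the 31 members. Capitals mark 4 motifs searched on both strands: the classical sterol regulatory element (the longest run of capitals in SREBF2), the NF-Y box CCAAT, the GC box GGGCGG and the E-box CACGTG. MSMO1 (4 NF-Y and 2 GC boxes) is chr4:165327419-165327668 on the plus strand. INSIG1 (1 NF-Y box, 5 GC boxes and 1 E-box) is chr7:155297628-155297877 on the plus strand. SCD (2 NF-Y and 2 GC boxes) is chr10:100346983-100347232 on the plus strand. SREBF2 (1 NF-Y and 2 GC boxes beside the sterol element) is chr22:41832855-41833104 on the plus strand. HMGCS1 (2 NF-Y and 2 GC boxes, the first of 2 annotated starts) is chr5:43313413-43313662 on the minus strand. FADS1 (2 GC boxes, no NF-Y box) is chr11:61817004-61817253 on the minus strand.
MSMO1: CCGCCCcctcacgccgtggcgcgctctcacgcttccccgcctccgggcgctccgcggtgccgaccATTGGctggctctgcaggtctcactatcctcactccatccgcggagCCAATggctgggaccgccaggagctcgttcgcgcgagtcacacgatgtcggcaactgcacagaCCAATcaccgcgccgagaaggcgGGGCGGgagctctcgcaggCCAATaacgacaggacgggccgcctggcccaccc
INSIG1: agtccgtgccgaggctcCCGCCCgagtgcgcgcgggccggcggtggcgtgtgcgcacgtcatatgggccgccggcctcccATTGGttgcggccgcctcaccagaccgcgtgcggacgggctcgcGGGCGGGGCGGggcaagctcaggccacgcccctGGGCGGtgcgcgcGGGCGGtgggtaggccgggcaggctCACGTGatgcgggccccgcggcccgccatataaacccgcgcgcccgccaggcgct
SCD: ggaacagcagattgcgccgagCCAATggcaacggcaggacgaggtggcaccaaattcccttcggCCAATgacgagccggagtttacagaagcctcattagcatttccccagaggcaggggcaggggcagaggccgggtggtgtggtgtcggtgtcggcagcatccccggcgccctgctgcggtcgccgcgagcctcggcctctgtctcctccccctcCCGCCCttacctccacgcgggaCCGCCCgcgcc
SREBF2: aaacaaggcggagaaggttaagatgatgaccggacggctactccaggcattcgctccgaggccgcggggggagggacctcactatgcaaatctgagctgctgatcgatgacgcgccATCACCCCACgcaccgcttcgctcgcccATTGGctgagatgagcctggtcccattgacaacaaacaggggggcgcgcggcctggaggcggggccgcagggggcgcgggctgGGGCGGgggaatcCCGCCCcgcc
HMGCS1: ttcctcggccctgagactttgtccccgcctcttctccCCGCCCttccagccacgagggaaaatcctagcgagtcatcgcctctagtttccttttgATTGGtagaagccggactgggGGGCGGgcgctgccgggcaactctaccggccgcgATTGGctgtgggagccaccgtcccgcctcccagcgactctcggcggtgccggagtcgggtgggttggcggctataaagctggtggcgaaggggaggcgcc
FADS1: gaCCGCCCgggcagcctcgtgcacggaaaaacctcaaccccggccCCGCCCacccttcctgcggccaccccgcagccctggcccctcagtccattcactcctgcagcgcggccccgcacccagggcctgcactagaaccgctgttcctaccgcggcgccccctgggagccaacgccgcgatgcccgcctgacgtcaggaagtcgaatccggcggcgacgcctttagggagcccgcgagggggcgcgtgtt

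Over the whole 300-base windows, which add 50 bases after the start, an NF-Y box was present in 20 of 27 members (74.1%), beside 39.7% of the 27305 genes with a window. A GC box was present in 26 of 27 (96.3%), beside 48.3% of genes. An E-box was in 4 members (LSS, SC5D, INSIG1 and SCAP, 14.8%), beside 8.77% of genes. The exact sterol element was in SREBF2 alone among the members (3.7%) and in 16 genes in all (0.0586%). Neighbouring GC boxes can overlap each other, and the other motifs do not contain one another. The genes with a window were not limited to those expressed and tested here, and the shares among tested genes were not computed. A match describes letters in the window and is not a measured site of binding.

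The members covered a wide range of levels, which RPKM allows to be compared between genes because it is scaled per length. SCD, the desaturase that makes monounsaturated fatty acids, had the highest mean over the 18 libraries at 176.2 RPKM. FDPS, which makes farnesyl diphosphate, followed at 101.6 RPKM, then FASN, the fatty acid synthase, at 96.6 RPKM and SQLE, the squalene epoxidase, at 95.5 RPKM. The polyunsaturated fatty acid desaturases FADS1 and FADS2 were low, at 3.86 and 1.52 RPKM, and TM7SF2, a sterol reductase, was at 1.80 RPKM. Changes below are differences of log2(RPKM + 1), so those of low genes such as these come out smaller than the ratio of their RPKM. Errors are SD with n = 3 for levels and standard errors (SE) for log2 changes, and a change was called at an adjusted p under 0.05 over all genes tested.

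**Figure D1:**
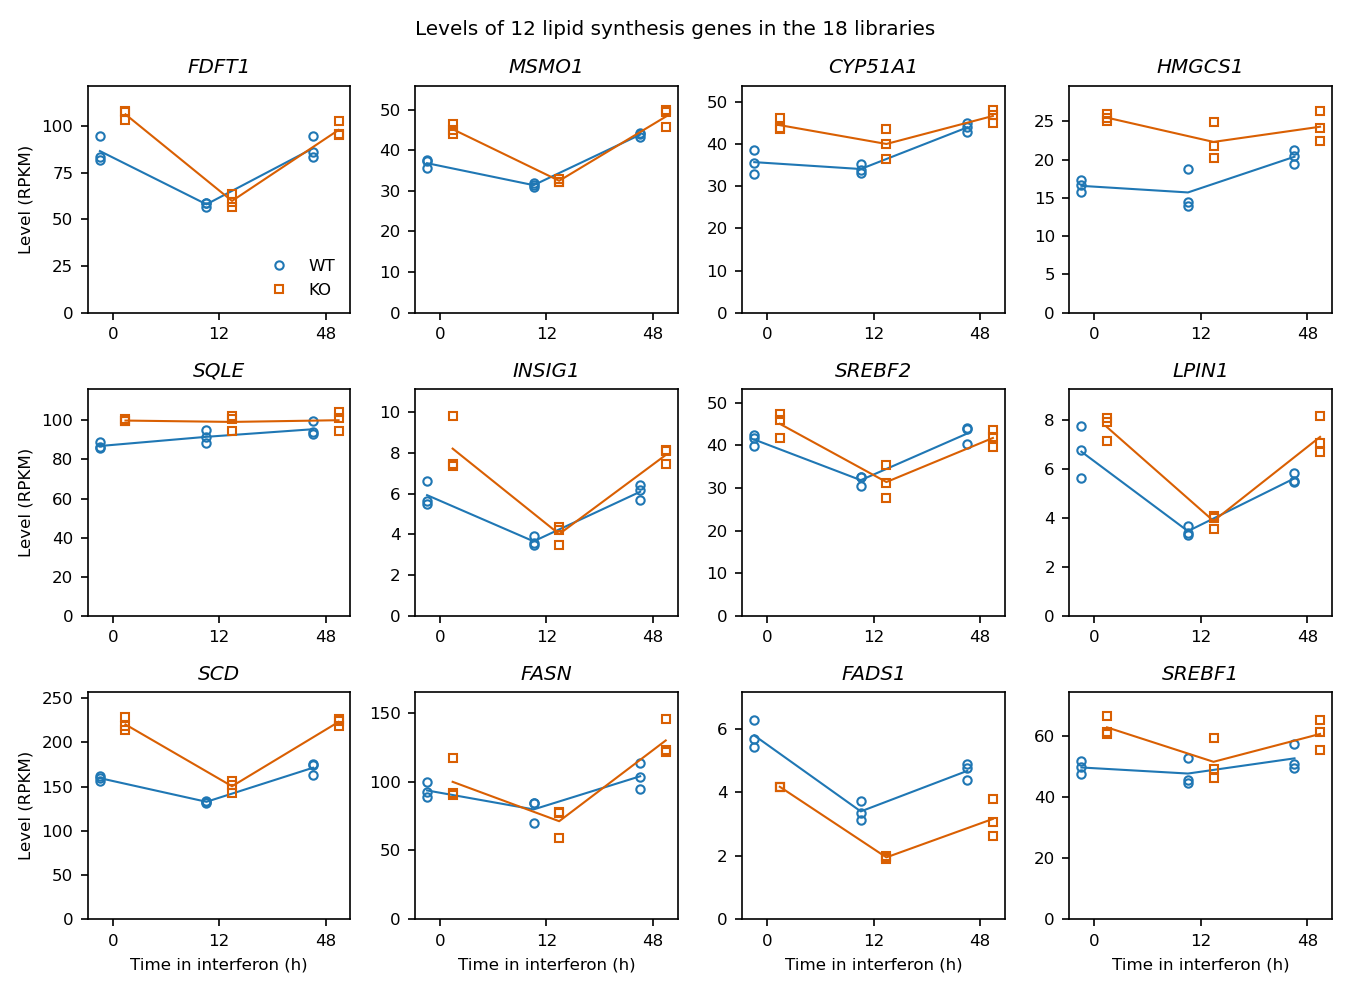
Levels (RPKM, linear axes from 0) of 12 members in each of the 18 libraries against time in interferon in hours, with evenly spaced time positions. Blue circles are WT libraries, orange squares KO libraries, and lines join group means. The FDFT1, MSMO1, INSIG1, LPIN1 and SCD panels show a dip at 12 h in both genotypes. In the SCD, FADS1, HMGCS1, CYP51A1 and MSMO1 panels KO and WT are apart at each time, for CYP51A1 only just at 48 h.

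The first comparison asked how the members responded to 12 h of interferon. In WT, 15 of 30 members fell and 1 rose, where 29.8% of all genes tested were called lower and 15.1% higher. In KO, 20 of 30 fell and none rose (limma), where 32.8% of all genes were lower and 16.0% higher. The median log2 change over the 30 was -0.22 in WT and -0.31 in KO, beside -0.09 and -0.09 over all genes. In 14 members (46.7%) the fall was called in both genotypes, as it was for 25.3% of all genes. In RNA from a whole culture, fewer cells that express a gene and less RNA per cell cannot be told apart.

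The scale of the 12 h changes depends in part on how libraries are set against each other. Median-of-ratios scaling removed a general shift at 12 h, -0.0962 on the log2 scale for WT and -0.1081 for KO. With that shift taken out, 10 members fell and 2 rose in WT, beside 20.5% of all genes lower and 21.8% higher. In KO 16 fell and none rose, beside 22.9% lower and 23.7% higher. The calls lost were those of MVK, FDPS, HSD17B7, SCAP and FADS2 in WT and MVK, HSD17B7, SREBF1 and ACLY in KO. The call gained was SQLE, which rose in WT by 0.17 with scaling and had a change of 0.07 without it.

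Among the sterol enzymes the fall at 12 h on the log2(RPKM + 1) scale was largest in FDFT1, the squalene synthase that commits farnesyl diphosphate to sterols. FDFT1 stood at 94.97, 81.8 and 83.5 RPKM in the untreated WT libraries, at 58.7, 56.9 and 58.8 at 12 h and at 83.5, 86.2 and 94.9 at 48 h. The KO libraries held 108, 103 and 108 RPKM untreated, 56.8, 63.9 and 59.2 at 12 h and 103, 95.9 and 95.4 at 48 h. Every 12 h library was below every untreated and 48 h library of its genotype, and the untreated KO libraries were above all untreated WT libraries. The log2 change at 12 h was -0.57 in WT (SE 0.0599, adjusted p = 1.85e-06) and -0.82 in KO (SE 0.0599, adjusted p = 2.21e-08), a fall to 67.04% and 56.3% of the untreated means.

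MSMO1, the methylsterol monooxygenase that removes methyl groups after lanosterol, was also lowest at 12 h in both genotypes. In WT its untreated libraries were at 37.3, 35.7 and 37.5 RPKM, those at 12 h at 31.4, 31.9 and 30.9 and those at 48 h at 43.1, 44.3 and 44.1. In KO the values were 45.04, 43.98 and 46.5 RPKM untreated, 32.2, 32.3 and 32.9 at 12 h and 49.3, 45.7 and 49.8 at 48 h. The genotypes were close at 12 h, and within a genotype the times did not overlap except that KO at 48 h overlapped untreated KO. The log2 change at 12 h was -0.22 in WT (adjusted p = 0.000231) and -0.46 in KO (adjusted p = 1.04e-07).

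The other sterol enzymes that fell in both genotypes span the pathway from its start to its late steps. ACAT2, the thiolase that condenses acetyl-CoA, changed by -0.34 in WT and -0.42 in KO. The mevalonate kinase MVK changed by -0.40 and -0.39, and the phosphomevalonate kinase PMVK by -0.39 and -0.35. FDPS changed by -0.20 and -0.27, the sterol reductase HSD17B7 by -0.21 and -0.27, and the sterol isomerase EBP by -0.28 and -0.32. For each of these the 12 h libraries did not overlap the untreated ones in either genotype. That adds no support to calls made from these same libraries, and the share of all genes so separated was not computed.

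In 3 sterol enzymes the fall was called in KO and not in WT, and for none of them did the difference between genotypes pass its own test. IDI1, the isopentenyl diphosphate isomerase, changed by -0.25 in KO and -0.05 in WT. DHCR7, the reductase of the last step to cholesterol, changed by -0.49 in KO and by -0.23 in WT, where 1 of the 12 h libraries (27.6 RPKM) was as high as the untreated ones. TM7SF2 went from 2.37, 2.41 and 2.72 RPKM to 1.15, 1.35 and 1.37 in KO, a change of -0.61. Its 12 h mean in KO was 51.6% of the untreated mean, a lower percentage than that of FDFT1. In WT the untreated values of 1.83, 2.17 and 1.46 RPKM overlapped those at 12 h.

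Part of the pathway was not called at 12 h in either genotype. HMGCS1, which makes HMG-CoA, had changes of -0.08 in WT and -0.19 in KO, with 95% intervals of -0.28 to 0.12 and -0.39 to 0.01. SQLE had changes of 0.07 and -0.01, with intervals of -0.02 to 0.17 and -0.10 to 0.08. The lanosterol demethylase CYP51A1 had changes of -0.06 and -0.15. MVD, LSS, NSDHL and SC5D, which act between mevalonate and the late sterols, were called in none of the 11 comparisons. Over all libraries MVD ranged from 14.5 to 27.2 RPKM, LSS from 19.0 to 23.1, NSDHL from 17.9 to 22.0 and SC5D from 15.4 to 19.8. LSS and NSDHL had the narrowest of these 4 ranges relative to their level, while the upper end for MVD is a single untreated KO library at 27.2 RPKM.

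Among the 6 control genes, INSIG1, SREBF2 and LPIN1 fell in both genotypes. INSIG1 fell from 5.49, 6.65 and 5.66 RPKM to 3.59, 3.48 and 3.92 in WT and from 7.46, 7.39 and 9.81 to 4.37, 3.47 and 4.22 in KO. The 12 h values of both genotypes lay below all untreated values, and the third untreated KO library stood above the others. The log2 change of INSIG1 was -0.57 (SE 0.102, adjusted p = 0.000298) in WT and -0.87 (SE 0.102, adjusted p = 4.22e-06) in KO, the largest fall among the 30 members in KO on that scale.

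LPIN1, a phosphatidate phosphatase of glycerolipid synthesis, had the largest fall in WT among the 30. The WT libraries held 6.77, 5.62 and 7.75 RPKM before interferon, 3.40, 3.69 and 3.30 at 12 h and 5.48, 5.53 and 5.86 at 48 h. The KO libraries held 8.08, 7.16 and 7.91 RPKM before interferon, 4.01, 4.09 and 3.54 at 12 h and 6.71, 8.18 and 7.06 at 48 h. Its 12 h mean was 51.6% of the untreated mean in WT and 50.3% in KO, a log2 change of -0.78 (adjusted p = 8.06e-06) and -0.84 (adjusted p = 3.23e-06).

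SREBF2, which encodes the SREBP that mainly serves sterol synthesis, was at 41.7, 42.5 and 39.8 RPKM in untreated WT and 30.5, 32.5 and 32.5 at 12 h. The untreated KO libraries were at 47.3, 45.97 and 41.8 RPKM and those at 12 h at 27.6, 35.5 and 31.1, again without overlap. Its log2 change was -0.37 in WT and -0.51 in KO. SREBF1, whose product mainly serves fatty acid synthesis, fell in KO by 0.29 and had a change of -0.06 in WT with an interval of -0.25 to 0.13. SCAP fell in WT by 0.18 and had a change of -0.08 in KO. STARD4, a sterol transfer protein, was the single member that rose at 12 h in WT without scaling, from 10.8, 10.9 and 11.5 RPKM to 15.1, 14.3 and 12.1, a change of 0.29 (adjusted p = 0.0243), and its change in KO was 0.09.

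Of the 6 fatty acid genes tested, SCD, FADS1 and FADS2 fell in both genotypes, and FASN and ACLY, the citrate-cleaving enzyme, were called lower in KO and not in WT. SCD went from 159.8, 162 and 156 RPKM in untreated WT to 132, 132 and 134 at 12 h, and from 218, 214 and 228 to 143, 152 and 157 in KO. All SCD groups at 0 and 12 h were apart from each other within and between genotypes, except that the highest KO library at 12 h was just above the lowest untreated WT library. The SCD change was -0.26 in WT (SE 0.0388, adjusted p = 5.35e-05) and -0.55 in KO (SE 0.0388, adjusted p = 1.51e-08).

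FADS1 fell from 5.68, 6.28 and 5.42 RPKM to 3.74, 3.34 and 3.11 in WT and from 4.18, 4.16 and 4.18 to 1.98, 1.89 and 1.97 in KO. The 12 h mean was 58.6% of untreated in WT and 46.7% in KO, with no overlap. FASN was at 92.1, 90.3 and 118 RPKM in untreated KO and 58.7, 78.03 and 77.2 at 12 h (change -0.48, adjusted p = 0.00371), and its change in WT was -0.23 with an interval of -0.49 to 0.03. ACLY fell by 0.14 in KO and had a change of -0.03 in WT, while the elongase ELOVL6, between 22.9 and 32.1 RPKM in all libraries, was called in no comparison. FADS2 lay between 0.6 and 2.94 RPKM, so its changes of -0.54 and -0.70 rest on low values.

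Some 12 h calls rested on single libraries. In WT the call of MVK was lost without replicate 2 at 0 h or at 12 h (adjusted p up to 0.106), HSD17B7 without replicate 1 or 3 of either group (up to 0.108), SCAP without replicate 1 of either group or replicate 2 at 12 h (up to 0.141), STARD4 without replicate 1 or 2 of either group (up to 0.103), and FADS2 without any of 9 libraries (up to 0.173). In KO the calls of MVK and ACLY were lost without replicate 3 at 0 h or replicate 1 at 12 h (up to 0.0864 and 0.0838), and SREBF1 without replicate 3 of either group (up to 0.0741). The other 11 calls in WT and 17 in KO held on leaving out each of the 18 libraries in turn.

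**Figure D2:**
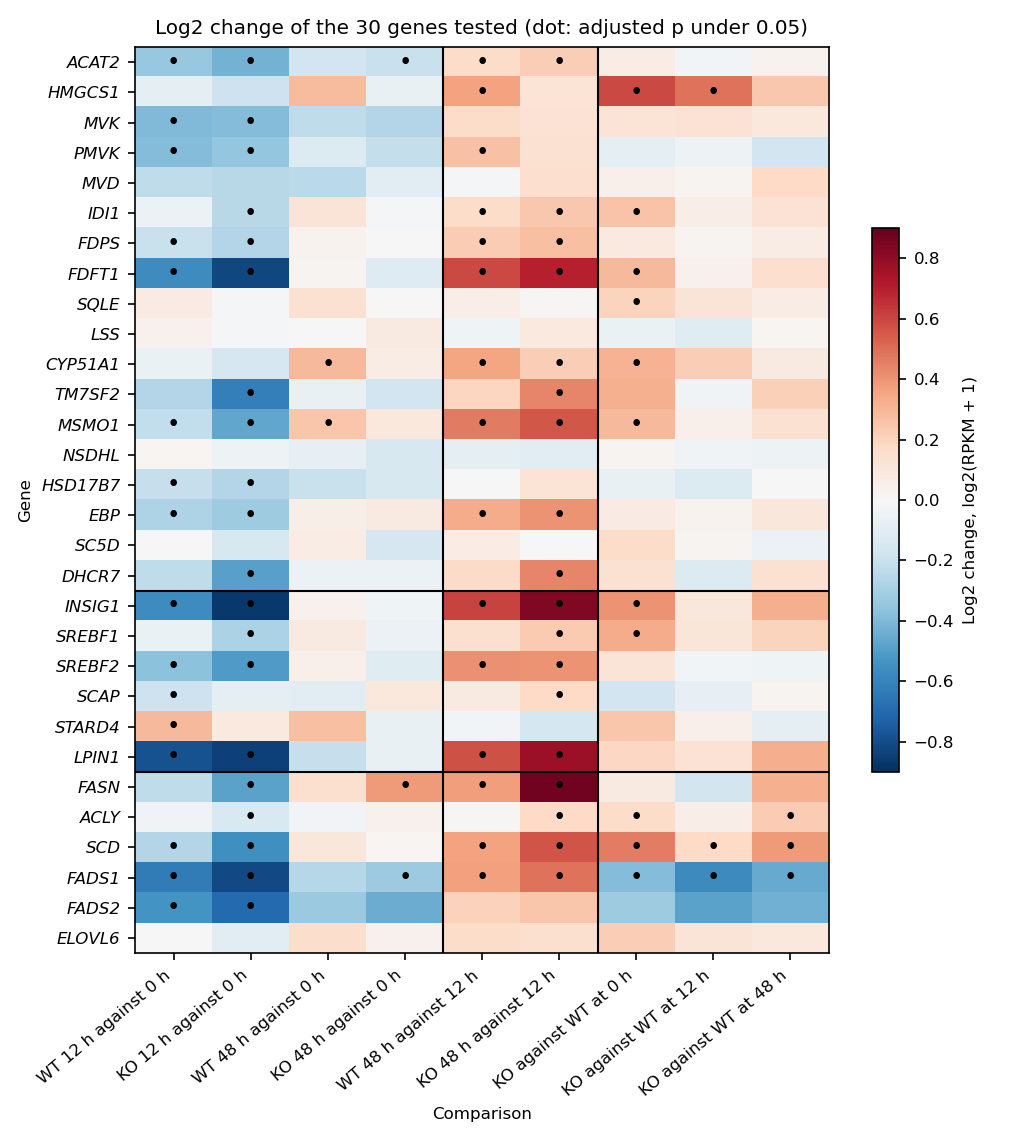
Log2 change of the 30 members (rows, grouped as sterol enzymes, control genes and fatty acid genes) in 9 comparisons (columns), with blue for lower, red for higher and a dot where the adjusted p is under 0.05. The 12 h columns are mostly blue, with 15 and 20 members called lower, and the 48 h against 12 h columns mostly red, with 15 and 18 called higher.

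After 48 h of interferon few members differed from untreated cells, at shares close to those of all genes. In WT 2 of 30 rose and none fell, where 6.52% of all genes were higher and 6.30% lower. In KO 1 rose and 2 fell, where 5.90% were higher and 7.42% lower. The 2 that rose in WT were CYP51A1, from 38.7, 32.9 and 35.6 RPKM to 42.9, 44.1 and 44.97 (change 0.30, adjusted p = 0.00438), and MSMO1 (change 0.25, adjusted p = 0.000359). In KO their changes were 0.07 and 0.09. The 3 called in KO were FASN, with a change of 0.38, ACAT2, with -0.20, and FADS1, with -0.32. All 3 were lost when single libraries were left out: ACAT2 without replicate 1 or 2 at 0 h or replicate 3 at 48 h (adjusted p up to 0.119), FADS1 without any of 5 libraries (up to 0.133) and FASN without any of 14 (up to 0.191). The median over the 30 was 0.03 in WT and -0.06 in KO, beside 0.00 and -0.01 over all genes.

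From 12 to 48 h the calls were in the other direction. In WT 15 of 30 rose and none fell, where 24.6% of all genes were higher and 11.3% lower. In KO 18 rose and none fell, where 27.7% were higher and 14.0% lower. With median-of-ratios scaling 10 rose and 1, NSDHL, fell in WT, beside 16.1% and 18.2% of all genes. In KO 12 rose and NSDHL fell, beside 19.1% and 21.1%. These comparisons share their 12 h libraries with those of 12 h against 0 h, and the 12 and 48 h comparisons share the untreated libraries, so the changes are given side by side.

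The rise from 12 to 48 h was called in both genotypes for 13 members (43.3%), as it was for 19.5% of all genes. They were ACAT2, IDI1, FDPS, FDFT1, CYP51A1, MSMO1 and EBP of the sterol enzymes, INSIG1, SREBF2 and LPIN1 of the control genes, and FASN, SCD and FADS1 of the fatty acid genes. Among these 13, median-of-ratios scaling lost the calls of ACAT2, IDI1, FDPS and FASN in WT and of ACAT2 and CYP51A1 in KO. The rise of FDFT1 was 0.59 in WT and 0.70 in KO, that of INSIG1 0.61 and 0.83, and that of LPIN1 0.57 and 0.77. FASN rose by 0.38 in WT and by 0.87 in KO, where the 48 h libraries reached 123, 146 and 122 RPKM. This was the largest rise in KO among the 30 on the log2(RPKM + 1) scale. As a percentage of the 12 h mean in KO, INSIG1 (196.7%) and LPIN1 (188.6%) were above FASN (182.5%).

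Other members differed in this course. MVK and HSD17B7, called lower at 12 h in both genotypes, had changes from 12 to 48 h of 0.17 and 0.01 in WT and 0.13 and 0.12 in KO, none of them called. HMGCS1 and CYP51A1, which were not called at 12 h, rose from 12 to 48 h in WT by 0.37 and 0.36. The HMGCS1 libraries of WT at 48 h stood at 21.2, 20.5 and 19.4 RPKM, above those at 12 h, at 13.96, 18.7 and 14.4. In WT the calls of ACAT2, PMVK, IDI1 and FASN were lost without 4, 1, 5 and 2 of the libraries in turn, with adjusted p up to 0.14, 0.0516, 0.147 and 0.105, the single library for PMVK being WT 12 h replicate 1. In KO the calls of CYP51A1, TM7SF2, SREBF1 and SCAP were lost without 1, 5, 5 and 4, with adjusted p up to 0.0568, 0.133, 0.188 and 0.164, the single library for CYP51A1 being KO 12 h replicate 2.

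The summed levels were also lowest at 12 h. Over the 18 sterol enzymes the WT sum averaged 642.8 ± 15.0 RPKM untreated, 561.2 ± 6.37 at 12 h and 666.1 ± 8.00 at 48 h. The KO sum averaged 724.5 ± 26.1, 583.8 ± 10.6 and 708.0 ± 18.1 RPKM. Over the 6 fatty acid genes the sum averaged 353.3 ± 4.93, 307.7 ± 11.0 and 375.4 ± 16.0 RPKM in WT and 430.3 ± 24.5, 319.4 ± 20.0 and 464.7 ± 10.2 RPKM in KO. Each of these KO sums at 0 and 48 h was above the WT sum of its time in every library, while at 12 h the fatty acid sums of the genotypes overlapped.

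**Figure D3:**
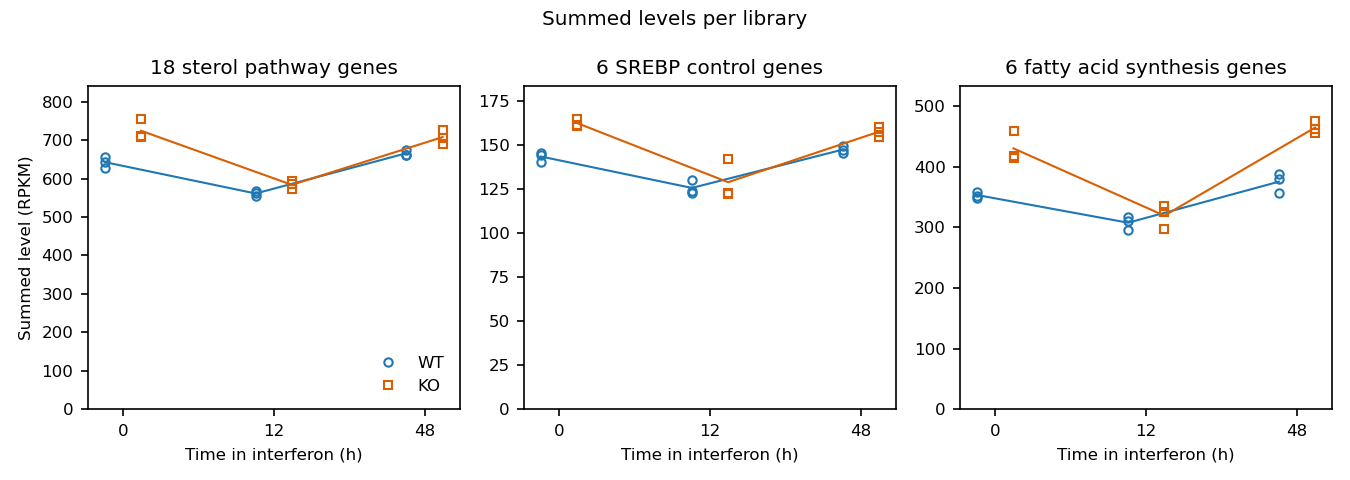
Summed level (RPKM, linear axes from 0) of the 18 sterol enzymes, the 6 control genes and the 6 fatty acid genes in each library against time in interferon in hours, with evenly spaced time positions. Circles are WT libraries, squares KO libraries, and lines join group means. In all 3 panels the 12 h libraries of each genotype lie lowest, and the untreated KO libraries lie above the untreated WT libraries.

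The next comparison asked how KO differed from WT before interferon. In untreated cells 10 of 30 members were higher in KO and 1 was lower, where 2.82% of all genes were higher and 2.07% lower. The median over the 30 was 0.15, beside 0.02 over all genes. Those higher were the sterol enzymes HMGCS1, IDI1, FDFT1, SQLE, CYP51A1 and MSMO1, the control genes INSIG1 and SREBF1, and the fatty acid genes ACLY and SCD, and the one lower was FADS1. In all 11 the KO and WT libraries did not overlap, which adds no support to calls made from these same libraries. TM7SF2, SC5D, DHCR7, SCAP, STARD4 and ELOVL6, which were not called, did not overlap either. How many of all genes were apart in this way was not computed, so these separations are given as description. VIM, the most abundant of the fibroblast markers, was also lower in untreated KO, at 255.5 ± 2.34 RPKM against 383.9 ± 6.46. Of 12 keratinocyte markers 3 were lower and 1 was higher, beside the 2.07% and 2.82% of all genes. LAMB3 was at 109.4 RPKM in KO against 142.5 in WT, SFN at 699.3 against 846.6 and DSG3 at 75.7 against 61.5. Whether these marker differences bear on the members was not tested.

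HMGCS1 showed the largest difference, with 25.9, 25.5 and 25.1 RPKM in untreated KO and 15.8, 17.3 and 16.6 in untreated WT. This was a log2 difference of 0.59 (SE 0.0934, adjusted p = 0.00101), at 154% of the WT mean. SCD was at 138% of WT, a difference of 0.46 (SE 0.0388, adjusted p = 1.4e-06). Differences of the others were 0.40 for INSIG1, 0.33 for SREBF1, 0.31 for CYP51A1, 0.30 for FDFT1, 0.29 for MSMO1, 0.25 for IDI1, 0.20 for SQLE and 0.16 for ACLY. FADS1 was lower in KO by a log2 difference of -0.39 (adjusted p = 0.0223), and FADS2, which acts before FADS1 in the same pathway, had a difference of -0.32 with a wide interval of -0.75 to 0.12.

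These calls in untreated cells were the least stable of the larger sets. HMGCS1, CYP51A1, MSMO1 and SCD held on leaving out each library in turn, and the count of members called went from 11 to between 5 and 12. It was 7 without WT 0 h replicate 1, 5 without replicate 2 and 7 without replicate 3, and 7 and 6 without KO 0 h replicates 2 and 3. IDI1 was lost without WT replicate 2 or KO replicate 2 or 3 (adjusted p up to 0.0959), FDFT1 without WT replicate 2 (0.05), SQLE without WT replicate 2 or 3 (up to 0.0542), INSIG1 without WT replicate 1 or 3 or KO replicate 3 (up to 0.111), and FADS1, SREBF1 and ACLY without any of 5, 7 and 10 libraries (up to 0.111, 0.143 and 0.151). Median-of-ratios scaling gave 8 higher and 1 lower, without SREBF1 and ACLY, and a fit on the 6 untreated libraries alone gave 5 higher and none lower.

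In interferon fewer members were called between genotypes, which does not by itself show that the differences became smaller. The median over the 30, 0.15 in untreated cells, fell to 0.03 after 12 h of interferon but reached 0.10 after 48 h. Over all genes both of these later medians were 0.01. Of the 30, 24 lay above 0 when untreated, 18 after 12 h and 22 after 48 h. An unadjusted p under 0.05 (limma) was found for 15, 6 and 12 of them. At 12 h HMGCS1 and SCD were higher and FADS1 lower in KO, where 1.60% of all genes were higher and 2.02% lower. HMGCS1 was at 20.2, 24.9 and 21.8 RPKM in KO and 13.96, 18.7 and 14.4 in WT, a difference of 0.49 (adjusted p = 0.00637) without overlap. The SCD difference at 12 h was 0.18 (adjusted p = 0.0159), lost without WT 12 h replicate 1 or KO 12 h replicate 2 or 3 (adjusted p up to 0.0843). At 48 h ACLY and SCD were higher and FADS1 lower, where 2.03% of all genes were higher and 2.16% lower. SCD at 48 h was at 227, 218 and 225 RPKM in KO and 176, 163 and 175 in WT, a difference of 0.38 (adjusted p = 1.61e-05).

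SCD was the single member called higher in KO at all 3 times, and FADS1 the single member called lower at all 3. The FADS1 difference was -0.39, -0.58 and -0.46 at 0, 12 and 48 h, with adjusted p of 0.0223, 0.00158 and 0.00836. At 48 h FADS1 stood at 3.79, 3.06 and 2.63 RPKM in KO and 4.39, 4.88 and 4.76 in WT. FDFT1 and MSMO1, higher in KO at 0 h, had differences of 0.04 and 0.05 at 12 h and of 0.15 and 0.14 at 48 h, none of them called. HMGCS1 at 48 h stood at 24.2, 26.3 and 22.4 RPKM in KO, above the WT libraries at 21.2, 20.5 and 19.4, with a difference of 0.24 (95% interval 0.04 to 0.44, adjusted p = 0.193). Like SCD, HMGCS1, CYP51A1 and MSMO1 had every KO library above every WT library at each of the 3 times, though not each of these differences was called. The share of all genes with such a separation was not computed. For CYP51A1 at 48 h the nearest libraries stood at 45.03 RPKM in KO and 44.97 in WT. FADS2 differed by -0.32, -0.48 and -0.43 at 0, 12 and 48 h, none of them called. A fit on the 6 libraries of 1 time alone called 1 member at 12 h, FADS1, and 1 at 48 h, SCD. The untreated libraries are separate from the 12 and 48 h libraries, so the 3 comparisons share no samples, but they share the 2 lines.

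**Figure D4:**
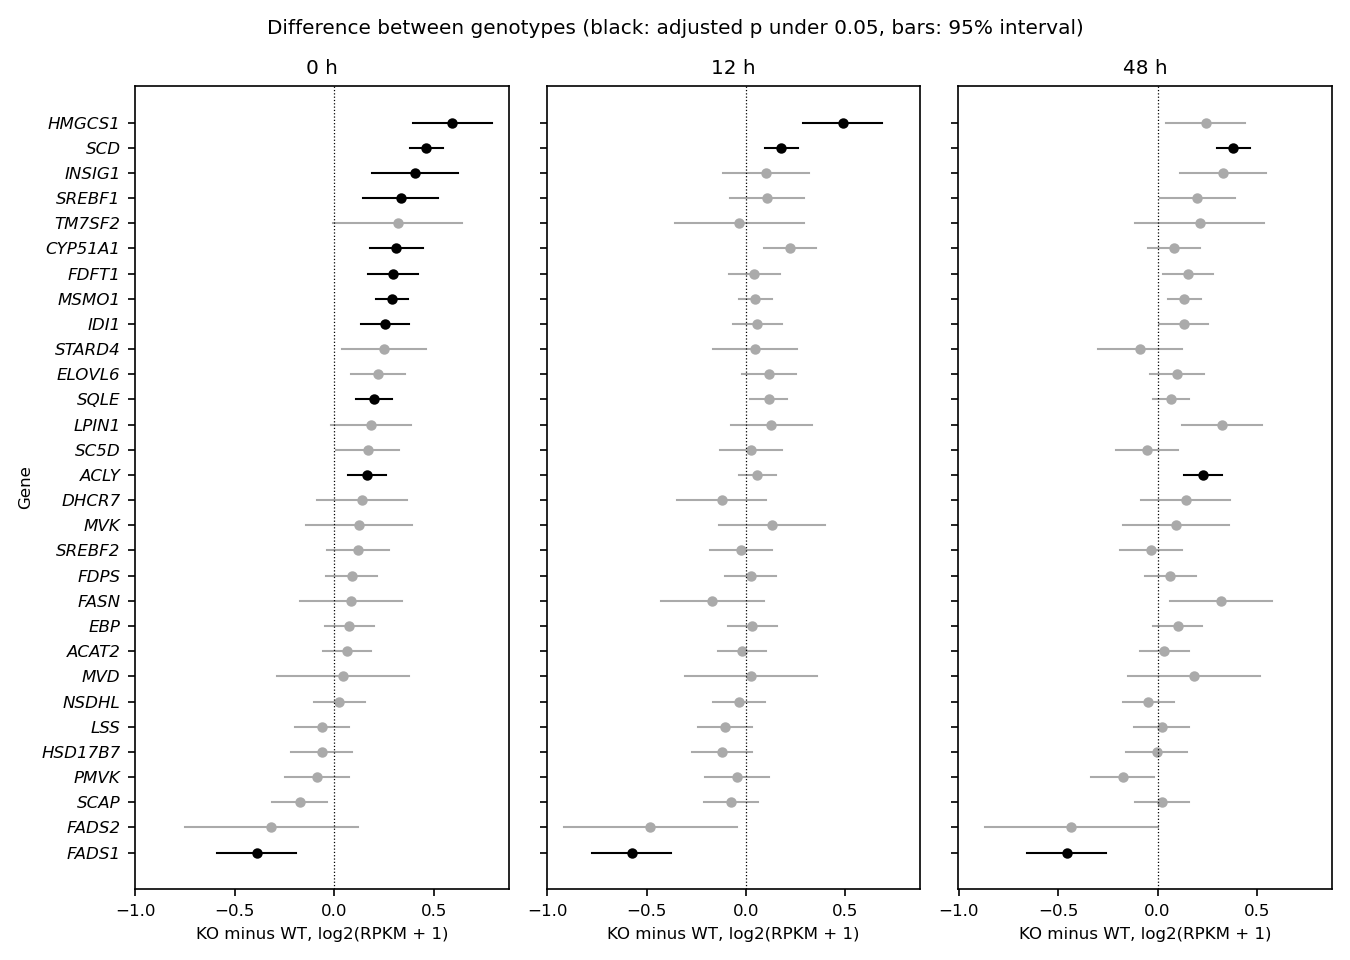
Difference between KO and WT in log2(RPKM + 1) for the 30 members at 0, 12 and 48 h, ordered by the value at 0 h, with 95% intervals and black points where the adjusted p is under 0.05. In the 0 h panel 10 members lie to the right of 0 and 1 to the left in black, against 3 black points in each of the other panels, and FADS1 is lowest in all 3.

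The last comparison asked, with an interaction term, whether interferon changed the members differently in KO and WT. No member passed at 12 or 48 h (limma), where 0.0753% and 0.0828% of all genes were called. At an unadjusted p under 0.05 there were 4 of 30 members at 12 h and 6 of 30 at 48 h, where 5.75% and 6.22% of all genes were under it. The smallest adjusted p at 12 h was that of SCD, whose change in KO was lower than in WT by a log2 difference of -0.29 (95% interval -0.40 to -0.17, adjusted p = 0.0796). MSMO1 had an interaction of -0.24 (95% interval -0.36 to -0.13, adjusted p = 0.194), FDFT1 one of -0.25 and IDI1 one of -0.20. At 48 h the 6 were HMGCS1 with -0.35, STARD4 with -0.34, CYP51A1 with -0.23, MSMO1 with -0.15, SQLE with -0.13 and SCAP with 0.20, at adjusted p of 0.741 or more.

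The direction of the interaction was mostly the same across members. It was below 0 for 27 of 30 at 12 h, with a median of -0.11, and for 21 of 30 at 48 h, with a median of -0.08. Over all genes 53.6% and 53.3% were below 0, with medians of -0.01. An interaction at 12 h equals the genotype difference at 12 h minus that at 0 h, so it holds the same untreated libraries as the comparison above.

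**Figure D5:**
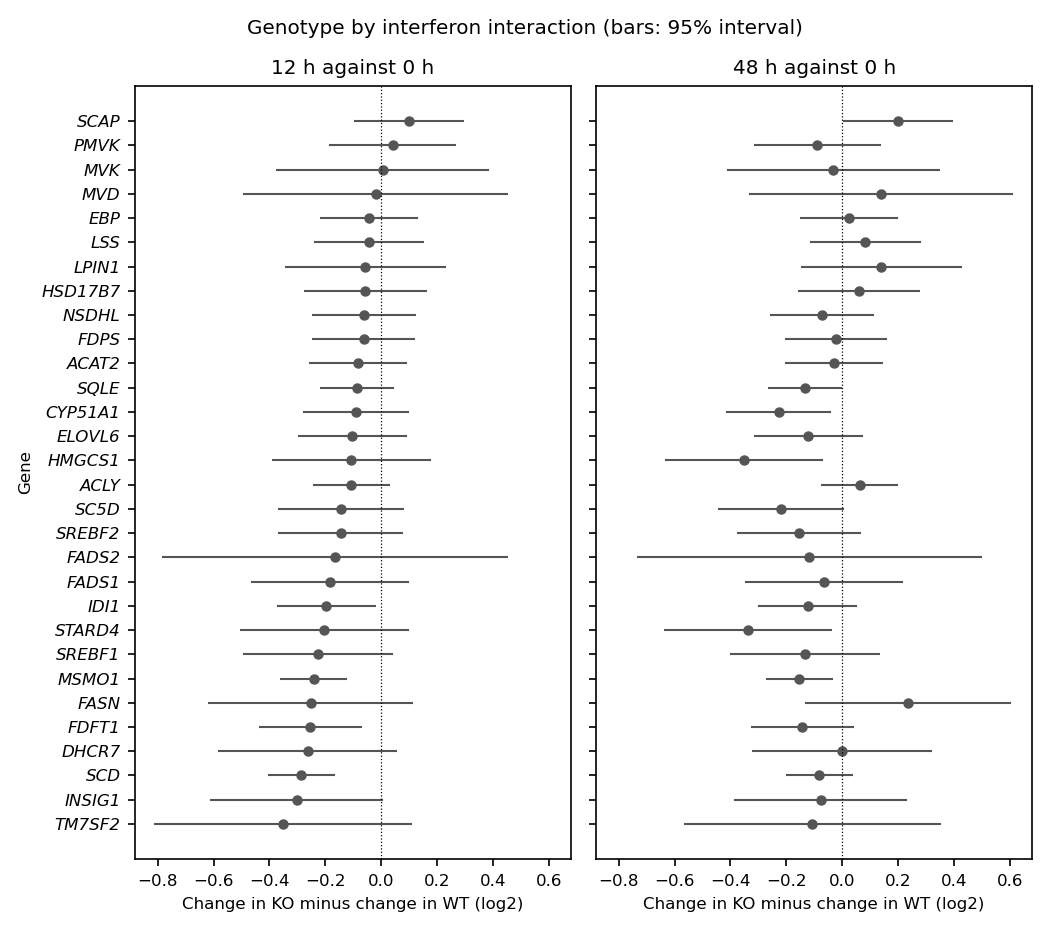
Interaction of genotype and interferon (log2 change in KO minus log2 change in WT) for the 30 members at 12 and 48 h, with 95% intervals, ordered by the value at 12 h. At 12 h 27 of the 30 points lie to the left of 0, SCD, MSMO1, FDFT1 and IDI1 with intervals clear of it, and no member passed the adjusted threshold.

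Neighbouring pathways were read from lists chosen in the same way. Their counts at 12 h stand beside 29.8% of all genes lower and 15.1% higher in WT. In KO the shares were 32.8% lower and 16.0% higher. Counts with median-of-ratios scaling stand beside 20.5% lower and 21.8% higher in WT and 22.9% lower and 23.7% higher in KO. Of 18 other genes of sterol synthesis, uptake, storage and acetyl-CoA supply, 10 fell and 1 rose at 12 h in WT, and 12 fell and 1 rose in KO. With median-of-ratios scaling 6 fell in WT and 8 in KO, and 1 rose in each. ACSS2, which makes acetyl-CoA from acetate, went from 16.3 to 8.08 RPKM in WT (change -0.93), FAXDC2 from 2.99 to 1.06 RPKM (-0.95), and SOAT1, which esterifies cholesterol for storage, rose from 17.1 to 21.1 RPKM (0.28). Only IDH1 of these 18 was called between untreated genotypes, at 59.0 RPKM in KO and 48.6 in WT (0.27). Of 7 LXR and oxysterol genes, 1 fell in WT at 12 h, NR1H3, which encodes LXR alpha (-0.53), and 2 fell in KO.

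Among 10 genes of the isoprenoid branch, which uses farnesyl diphosphate for prenylation, dolichol and ubiquinone, 2 rose and 3 fell at 12 h in WT. With median-of-ratios scaling 4 rose and 1 fell. The median change was 0.08 without scaling and 0.17 with it, beside -0.09 and -0.0025 over all genes. Among 21 other fatty acid and glycerolipid genes, 13 fell and 3 rose in WT and 12 fell and 3 rose in KO at 12 h. With scaling 10 fell in WT and 9 in KO, and 3 rose in each. DGAT2, which makes triglyceride, changed by -0.68 in WT, and ACSL5, an acyl-CoA synthetase, by 0.95. In untreated cells ACSL1 was higher in KO, at 17.4 RPKM against 10.1 (0.73), and ELOVL5 at 65.2 against 53.9 (0.27).

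Of 15 fatty acid oxidation genes, 10 fell and none rose at 12 h in WT, and 11 fell and 1 rose in KO. With scaling 5 fell and 1 rose in WT, and 10 fell and 1 rose in KO. PPARA, a nuclear receptor that drives oxidation genes, changed by -0.80 and HADH by -0.47 in WT. CPT1A, which admits fatty acids to mitochondria, was higher in untreated KO, at 20.3 RPKM against 15.1 (0.40). The medians at 12 h in WT were -0.20 for the other sterol genes, -0.25 for the other fatty acid genes and -0.19 for the oxidation genes, beside -0.22 for the 30 members and -0.09 for all genes.

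Markers of cell state moved at the same time as the members. Of 9 keratinocyte differentiation markers tested, 6 rose and 1 fell at 12 h in each genotype, where 15.1% of all genes were higher in WT and 16.0% in KO. In WT the largest rises were those of SPRR2A, from 1.27 to 4.23 RPKM, and TGM1, from 6.45 to 11.88 RPKM. The marker that fell in WT was KRT10, from 11.35 to 9.18 RPKM, and KRT1 went from 1.48 to 0.857 RPKM without a call. With median-of-ratios scaling 6 rose in each genotype and 1 fell in KO, while the fall of KRT10 in WT was not called. Of all genes, 21.8% in WT and 23.7% in KO were higher with scaling. SPRR1B made up most of the sum of the list, at 100.5 RPKM in untreated WT and 125.5 at 12 h. That sum went from between 155.7 and 171.8 RPKM in untreated WT to between 195.4 and 207.4 at 12 h. At 48 h it was between 146.5 and 164.2 RPKM. In KO the sum was between 139.6 and 159.8, 174.2 and 219.8, and 159.3 and 181.9 RPKM. Of 12 keratinocyte markers, 8 rose and 1 fell at 12 h in each genotype, beside 15.1% of all genes higher in WT and 16.0% in KO. With scaling 9 rose and none fell in each genotype. VIM fell in WT from 383.9 ± 6.46 RPKM to 313.9 ± 3.49 at 12 h and 285.1 ± 12.7 at 48 h. COL1A1, the other fibroblast marker tested, was between 1.29 and 3.14 RPKM in all libraries and was not called in WT. In KO at 12 h COL1A1 was called higher, from a mean of 1.483 RPKM to 2.597. VIM was called lower there, from 255.5 to 227.5 RPKM. With median-of-ratios scaling that rise was still called and that fall was not. PDGFRB was at most 0.52 RPKM. The part of these markers in the changes of the members was not tested.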

How the data were processed

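RNA was measured in 18 libraries of polyA RNA (TruSeq Stranded mRNA, per the labels' protocols), 3 in each of 6 groups. The authors deposited RPKM values per gene, rounded to 2 decimals. The submitters' processing notes name cutadapt, STAR 2.6.1, RSEM 1.3.0, limma 3.50.3 and build hg19, with no role or order. The annotation, the gene filter, the reads used for scaling and the treatment of reads from the mouse feeder cells are not given in the sources used here.

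RPKM values are not counts, so log2(RPKM + 1) was fitted in limma 3.58.1 under R 4.3.3 on all 18 libraries, as a cell-means model with a mean trend, over the 13280 genes with at least 1 RPKM in at least 3 libraries. Each of the 11 comparisons had its p-values adjusted by the Benjamini-Hochberg method across the genes tested. The model was tested on simulated data. Also tried were scaling by median of ratios, a pseudocount of 0.1, a mean RPKM of 5 as the filter or none, no variance trend, a replicate block, a fit of just the libraries compared, and leaving out each library.

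Members and lists were chosen with earlier results of these data known. Every member is named: those called in any comparison with values, the largest with each library, and from other lists the 2 largest rises and falls in WT at 12 or 48 h and in untreated KO. A few genes of these pathways were left out of the lists. Promoters came from RefSeq tables on GRCh38.p14, and the coordinates given are those of the promoter windows on that build, since the files use another.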

Additional observations from a re-analysis of the deposited data

How the results depend on the processing

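Of 91 calls on members, 90 held with a pseudocount of 0.1, 90 without a filter, 79 of the 79 that could be fitted with a mean RPKM of at least 5, 87 with variances without a trend, 69 with median-of-ratios scaling and 72 with the libraries of the comparison alone, and 1527 of 1638 held on leaving out single libraries. No call reversed. In WT at 48 h a mean RPKM of at least 5 called 5 members in place of 2. The libraries of the comparison alone called 0 members at 48 h in KO in place of 3 (limma), 5 in place of 11 between untreated genotypes, 1 in place of 3 between genotypes at 12 h and 1 in place of 3 at 48 h. This alternative has fewer samples behind each variance. Leaving out single libraries gave 12 to 16 members at 12 h in WT, 2 to 4 at 48 h in WT, 17 to 21 at 12 h in KO, 0 to 3 at 48 h in KO, 12 to 16 from 12 to 48 h in WT, 15 to 18 in KO, and 5 to 12, 2 to 4 and 3 to 4 between genotypes at 0, 12 and 48 h. At 48 h in KO there were 0 members without KO 0 h replicate 1 or KO 48 h replicate 3 and 1 without KO 0 h replicate 2. At 48 h in WT there were 4 without replicate 2 of WT at 12 h, WT at 48 h, KO at 12 h or KO at 48 h. The median over the members at 48 h in WT, 0.03, was -0.0013 without WT 0 h replicate 3, the lowest value on leaving out single libraries, and at most 0.034, without WT 48 h replicate 2, and the cause was not tested. No interaction was called under any alternative. Depth is known in relative terms only, and low genes such as FADS2 and TM7SF2 have the least precise values.

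Replicate numbers are shared between groups in the labels, but the libraries share only a number: of 45 same-numbered pairs, 2 had a correlation of deviations over 0.1 (median -0.0126, range -0.0972 to 0.1572). With a replicate block the count of members was 16 at 12 h in WT, 3 at 48 h in WT, 21 at 12 h in KO, 2 at 48 h in KO, and 9, 3 and 3 between genotypes at 0, 12 and 48 h. It was 15 and 17 from 12 to 48 h in WT and KO and 0 for both interactions, and 87 of the 91 calls held.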
